A study of Mus musculus with 12 samples.

Results

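The 33 genes described here are markers of excitatory cortical neurons and of the cortical layers in which these neurons lie. They were taken by symbol from the deposited expression table, in which all 33 were found among 28842 genes. By the layer each gene is best known for, 7 were placed in an upper-layer list, 16 in a deep-layer list, 5 in a list of genes found in several layers, and 5 in a list of genes shared by excitatory neurons of many layers.

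The study asked what cocaine given in adolescence leaves behind in the adult mouse brain. RNA from the prefrontal cortex of wild-type (WT) male C57BL/6J mice, a common inbred strain, was sequenced in 12 libraries, 6 from mice that received saline and 6 from mice that received cocaine at 15 mg/kg, both from postnatal day 28 to day 42. Mice of both groups were pre-tested on day 75 and received 1 mg/kg cocaine before the training sessions of conditioned place preference on days 76 and 77, a task in which an animal learns to associate a place with a drug. Brains were taken after the test on day 78, so neither group was free of cocaine and the contrast is adolescent cocaine against adolescent saline. The labels do not state that each library is a separate mouse, and p-values therefore measure the spread between these libraries only.

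The cerebral cortex is built in layers. Excitatory neurons of the upper layers mostly connect cortical areas with each other, those of layer 5 send axons to the brainstem, spinal cord and striatum, those of layer 6 project mainly to the thalamus, and a thin sheet of subplate-derived neurons lies beneath them. These neurons release glutamate, which they load into vesicles through vesicular glutamate transporters. Each layer's identity is set in development by transcription factors such as Cux2, Fezf2 and Tbr1, many of which stay on in the adult.

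Sequencing depth was 16.7 to 19.9 M reads. The share of mitochondrial reads was 4.03 ± 0.753% in saline and 3.91 ± 0.780% in cocaine libraries (mean ± SD, n = 6 in each). Some labels name a mesenchymal stem cell line, yet its 4 markers Prrx1, Twist1, Col1a1 and Runx2 together reached only 2.18 to 3.08 FPKM (reads per kb of gene and per M reads, computed here from the deposited values), against 300.5 to 422 FPKM for Slc17a7, the main vesicular glutamate transporter of cortex. The labels also carry an unexplained time tag: in both groups libraries 1, 3 and 5 are tagged day 0, and libraries 2, 4 and 6 day 5. By the treatment labels all tissue was collected on postnatal day 78. The tag is therefore not an age of these mice, and whether it marks a batch is not stated. Mitochondrial shares were 3.70 to 5.43% in the 6 libraries tagged day 0 and 3.24 to 4.36% in the 6 tagged day 5. With the tag as a covariate 0 members had an unadjusted p under 0.05 by limma. Among all 13016 genes tested, 91 higher and 66 lower in cocaine had one. Marker genes of other cell types varied widely between libraries of both groups. The summed level of 10 oligodendrocyte genes, which include the myelin protein gene Mbp, ran from 316 to 2370 FPKM, and that of 10 genes of striatal projection neurons from 69.7 to 121 FPKM. Genes of the choroid plexus, the tissue that secretes cerebrospinal fluid, summed to 540 FPKM in saline library 5 and to 0.336 to 1.77 FPKM in the other libraries. Nearly all of the 540 came from Ttr, which reached 536 FPKM, while no other gene of this list exceeded 2.24 FPKM. In bulk tissue fewer cells of a type and less RNA per cell cannot be told apart.

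Levels of the 33 genes differed widely, compared here per length as mean FPKM over 12 libraries. Slc17a7 was highest at 368, followed by Lmo4, a transcriptional cofactor of several layers, at 118, and Rprm, a cell-cycle gene used as a layer 6 marker, at 91.2. Neurod6, a transcription factor of differentiated excitatory neurons, stood at 66.3 and Crym, a thyroid hormone-binding protein of deep layers, at 61.4, a difference smaller than the SD of either over the libraries (8.64 and 8.93). Neurod2 at 47.8 and Tbr1 at 42.05 differed by little more than the SD of either (4.81 and 5.18). The classical upper-layer transcription factors lay far lower, with Cux2 at 7.04, Cux1 at 2.19 and Rorb at 1.92, so that the most abundant upper-layer members were Wfs1 at 32.5 and Calb1 at 22.05. Foxp2 at 1.33 was the lowest member that entered the test, and Tshz2 at 0.641 lay under the filter of 1 FPKM. The 7 upper-layer members together made up 73.1 to 90.02 FPKM per library and the 16 deep-layer members 343 to 416 FPKM.

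**Figure D1:**
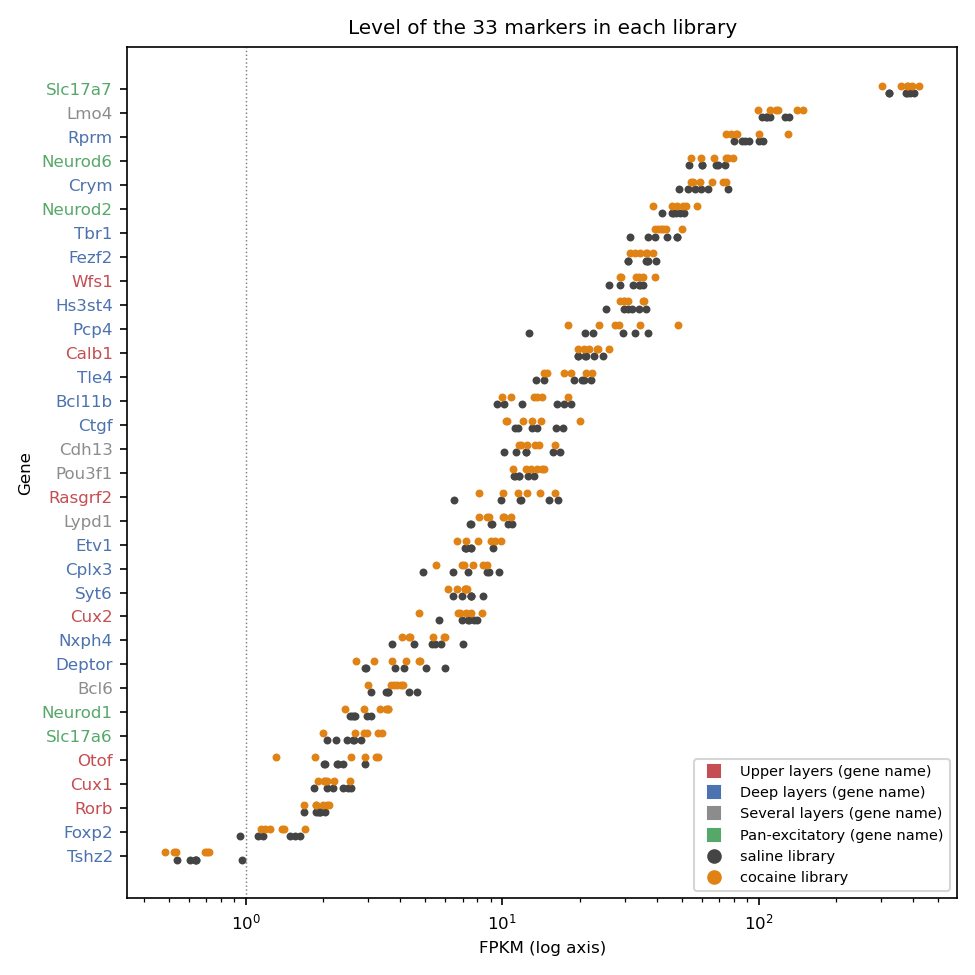
Level of each of the 33 genes in each of 12 libraries, in FPKM on a log axis, ordered by mean level; points are libraries, coloured by group. Slc17a7 (mean 368 FPKM) and Tshz2 (0.641 FPKM) mark the ends, and saline and cocaine points overlap for every gene.

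None of the 33 genes passed the test of cocaine against saline. By limma on log2(value + 1), 0 of the 32 members tested had an adjusted p under 0.05, beside 0 of 13016 genes tested (0%). At an unadjusted p under 0.05 there were again 0 members, against 149 of all genes tested (1.14%), 88 of them higher in cocaine (0.676%) and 61 lower (0.469%). That balance depended on the scaling and turned to 72 higher and 79 lower with TMM. No member had groups that failed to overlap, against 10 of all genes (0.0768%). On recovered reads, edgeR's quasi-likelihood test called 0 of 16057 genes (0%) and DESeq2 3 of 28842 (0.0104%), none of them a member. Neither tool gave a member an unadjusted p under 0.05. Over all genes, edgeR gave 119 such genes higher in cocaine and 134 lower, and DESeq2 180 higher and 248 lower. The authors' deposited table held no member with p under 0.05, beside 428 of the 28827 genes with a p-value. Its smallest member p was 0.0683, for Neurod1. DESeq2 run here gave the same smallest member p (0.0683, Neurod1), so the deposited values are not a separate test.

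The intervals limit how large a difference could have been missed. For 31 of 32 members the 95% interval of the ratio of cocaine to saline lay within 1.5-fold in either direction, and for 6 it lay within 1.2-fold. Only Pcp4, a small calmodulin-binding protein of deep-layer and striatal neurons, had a wider one, from 0.810 to 1.68.

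Genes shared by excitatory neurons all had small positive differences, none of which passed the test, beside 53.7% of all genes tested with a positive one. The signs of Slc17a7 and Neurod2 changed when single libraries were left out. In what follows values are normalised reads (reads divided by the library's size factor), and differences are log2(value + 1) in cocaine minus saline, with the standard error (SE) from limma. Slc17a7 ranged from 29749 over a median of 35686 to 38706 in saline and from 28239 over 36375 to 39790 in cocaine. The cocaine range enclosed the saline range, and the difference was 0.03 ± 0.11. Slc17a6, the second vesicular glutamate transporter, which is better known from thalamus, ranged from 205 over 241 to 271 in saline and from 189 over 277 to 336 in cocaine. The lowest and the highest library were both in the cocaine group, with a difference of 0.20 ± 0.13.

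Neurod1, a bHLH (basic helix-loop-helix) factor of neuronal differentiation, had the smallest p of the members. It measured 120, 127, 129, 131, 140 and 145 in the saline libraries and 116, 140, 160, 169, 171 and 175 in the cocaine libraries. Thus 4 of 6 cocaine libraries lay above all saline libraries and 1 lay below them. The means were 132 ± 8.99 and 155 ± 23.2 (SD, n = 6), the difference was 0.22 ± 0.11, and the exact two-sided permutation test over libraries gave p = 0.0649. It lies at chr2:79452521-79456751 on the minus strand (GRCm38), and 7.37% of its exon bases are shared with Cerkl on the same strand, so reads there could belong to either gene. Neurod2, its relative in mature excitatory neurons, ranged from 2273 to 2775 in saline and from 2113 to 3143 in cocaine (0.04 ± 0.09). Neurod6 ranged from 1985 to 2739 and from 2025 to 2936 (0.09 ± 0.11). For both the wider range was that of the cocaine group.

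**Figure D2:**
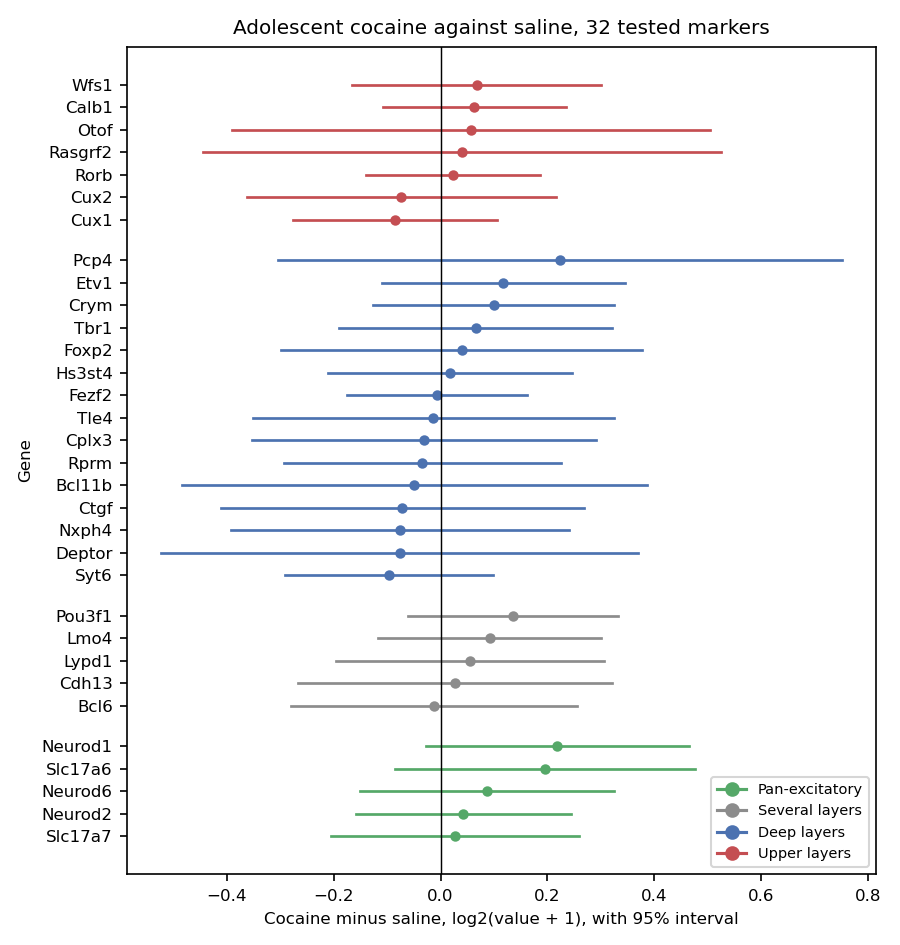
Difference of each tested member, cocaine minus saline on the log2(value + 1) scale, with its 95% interval from limma, grouped by list. All 32 intervals include 0, and the point estimates lie between -0.10 and 0.22.

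Upper-layer members showed 5 of 7 differences above 0 and 2 below, with a median of 0.04 and a range from -0.08 to 0.07. Over all 13016 genes the median was 0.01 and 53.7% of differences were above 0. The count is not stable, since it was 3 without cocaine library 2 and 3 without cocaine library 6. Cux1, a homeobox factor of upper layers and also of other cells, ranged from 670 over 794 to 889 in saline and from 666 over 736 to 886 in cocaine (-0.08 ± 0.09). Cux2, its more layer-restricted relative, ranged from 977 over 1301 to 1463 and from 829 over 1230 to 1530 (-0.07 ± 0.14). The ranges overlapped almost entirely, and cocaine library 3 was lowest for both genes. Rorb, the nuclear receptor that marks layer 4, was the steadiest member, at 341 to 395 in saline and 343 to 415 in cocaine (0.02 ± 0.08).

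Otof, an otoferlin gene used as a marker of superficial layer neurons, ranged from 276 over 307 to 420.5 in saline and from 180 over 391 to 452 in cocaine. Its cocaine libraries held both ends, with 4 libraries at 361 to 452 and 2 at 180 and 254, and the difference was 0.06 ± 0.21. Calb1, a calcium buffer of upper-layer neurons and of some interneurons, ranged from 1715 to 2024 and from 1656 to 2192 (0.06 ± 0.08). Wfs1, an endoplasmic reticulum membrane protein rich in superficial layer neurons, ranged from 1695 to 2427 and from 1885 to 2587 (0.07 ± 0.11). Rasgrf2, a Ras exchange factor, spread much more, from 1031 to 2772 in saline and from 1306 to 2702 in cocaine (0.04 ± 0.23).

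Deep-layer members gave 6 differences above 0 and 9 below among the 15 tested, with a median of -0.01 and a range from -0.10 to 0.22. This count moved with single libraries too, to 11 without saline library 2, and to 2 when libraries were weighted by their quality. Among layer 5 genes, Fezf2, the factor that specifies subcortical projection neurons, ranged from 1622 over 1960 to 2040 in saline and from 1694 over 1877 to 2063 in cocaine (-0.01 ± 0.08). Its spread was narrower than that of Bcl11b, which acts downstream of it and encodes CTIP2. Bcl11b ranged from 1328 over 2051 to 2738 in saline and from 1411 over 1900 to 2661 in cocaine (-0.05 ± 0.20). Etv1, an ETS factor of layer 5, ranged from 1623 to 2116 and from 1529 to 2291 (0.12 ± 0.11). Deptor, an inhibitor of mTOR signalling, ranged from 442 to 972 and from 414 to 770 (-0.08 ± 0.21). Crym ranged from 3029 to 4347 and from 3276 to 4426 (0.10 ± 0.11).

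Pcp4 measured 237, 394, 415, 522, 569 and 652 in saline and 337, 423, 499, 510, 616 and 856 in cocaine. The groups overlapped over most of their range, with a saline library at the bottom and a cocaine library at the top, and the difference was 0.22 ± 0.25. It rested in large part on single libraries, being 0.04 without saline library 4 and 0.35 without cocaine library 2. Its exons share 23.7% of their bases with Igsf5 on the same strand. Tshz2, a zinc-finger gene below the filter, measured 71.1 to 129 in saline and 65.3 to 98.8 in cocaine and was not tested. As 65.2% of its exon bases are also covered by Gm26883 on the opposite strand and the strand setting of the counting is not given, its reads cannot be assigned with certainty.

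For layer 6, Tbr1, the T-box factor of corticothalamic neurons, ranged from 2973 over 4001 to 4829 in saline and from 3740 over 4029 to 4801 in cocaine (0.07 ± 0.12). The saline values enclosed all cocaine values. Foxp2, a forkhead factor, ranged from 261 to 490 and from 324 to 485 (0.04 ± 0.16), and Tle4, a corepressor, from 1074 to 1865 and from 1177 to 1804 (-0.01 ± 0.16). In both the saline libraries were the more spread group. Syt6, a synaptotagmin, ranged from 641 to 893 and from 618 to 761 (-0.10 ± 0.09). Hs3st4, a heparan sulfate sulfotransferase, ranged from 1388 to 2107 and from 1584 to 2077 (0.02 ± 0.11). Rprm ranged from 2019 to 2598 and from 1979 to 3312 (-0.03 ± 0.12), where the value of 3312 belonged to cocaine library 1 and the next cocaine library was at 2529.

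Markers of the deepest neurons had small negative differences, but the signs of Nxph4 and Cplx3 changed when single libraries were left out. Nxph4, a secreted neurexin ligand, ranged from 114 to 210 in saline and from 124 to 175 in cocaine (-0.08 ± 0.15). Cplx3, a complexin that regulates vesicle release, ranged from 263 to 492 and from 296 to 452 (-0.03 ± 0.15). Ctgf, a secreted matrix protein gene, ranged from 550 over 672 to 850 in saline and from 523 over 638 to 1002 in cocaine (-0.07 ± 0.16). The top value was cocaine library 3, and the other 5 cocaine libraries lay between 523 and 701. The difference of Ctgf was -0.19 without cocaine library 3 and -0.0070 without cocaine library 1. Its exons share 23.2% of bases with Gm15270 on the opposite strand.

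The 5 genes of several layers had 4 differences above 0 and 1 below (median 0.06). Pou3f1, a POU-domain factor, ranged from 735 over 779 to 911 in saline and from 737 over 888 to 1022 in cocaine (0.14 ± 0.09). The medians differed but the ranges shared most values. Lmo4 ranged from 6471 to 7951 and from 6404 to 9170 (0.09 ± 0.10). Lypd1, a regulator of nicotinic receptors, ranged from 908 to 1401 and from 996 to 1394 (0.06 ± 0.12), and 17.1% of its exon bases are shared with Gpr39 on the opposite strand. Cdh13, a cadherin, ranged from 1964 to 3427 and from 2267 to 3300 (0.03 ± 0.14). Bcl6, a repressor of Notch targets in new cortical neurons, ranged from 353 to 568 and from 347 to 495 (-0.01 ± 0.12).

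Upper layers set directly against deep layers differed between the groups by less than the spread within them. For each library, the mean deviation of the deep-layer members from their own average was subtracted from that of the upper-layer members, on the log2 scale. This measure was -0.01 ± 0.11 in saline and 0.01 ± 0.21 in cocaine libraries (mean ± SD, n = 6), a difference of 0.01, less than 1 within-group SD (0.17). Saline libraries ran from -0.16 to 0.14. Of the cocaine libraries 5 ran from -0.03 to 0.15, and library 3 stood apart at -0.39. Without 1 library at a time the difference took values from -0.02 to 0.09.

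Cocaine library 3 had a low upper-layer and a high deep-layer mean deviation, though not every member went that way. Its upper-layer mean deviation of -0.24 was the lowest of 12 libraries. Its deep-layer one of 0.155 was the highest, nearly level with 0.145 in saline library 2. It was lowest of all libraries for 6 members, namely Cux1, Cux2, Otof, Rprm, Slc17a7 and Neurod2, and highest for Etv1 and Ctgf. Saline library 5 was also lowest for 6 members. Of the remaining upper-layer members in cocaine library 3, Rasgrf2 (2015) and Calb1 (1987) lay above their cocaine medians (1930 and 1927). Rorb (363) and Wfs1 (1912) lay below theirs (373 and 2249). The other lists placed cocaine library 3 at -0.20 for the other upper-layer genes, again the lowest of 12, and at 0.21 for the other deep-layer genes, where 2 libraries were higher. Its mitochondrial share was 5.43%, the highest of 12, and its summed oligodendrocyte level was 1176 FPKM, within the range of the others; their part in this was not tested.

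**Figure D3:**
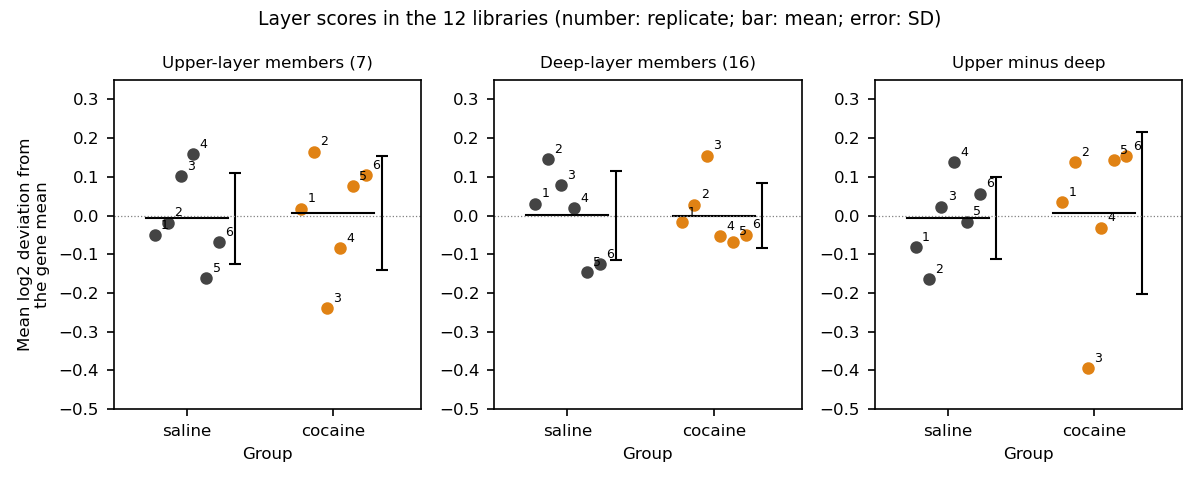
Mean deviation over the 7 upper-layer members, over the 16 deep-layer members, and the first minus the second, on the log2 scale; points are libraries numbered by replicate, bars are group means and error bars SDs. Cocaine library 3 is lowest for upper layers (-0.24), highest for deep layers (0.155, nearly level with 0.145 in saline library 2) and lowest for the difference (-0.39).

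Most of the variation of the layer markers lay within the groups. Between the lowest and the highest library the value differed by 3.61-fold for Pcp4, 2.69-fold for Rasgrf2, 2.51-fold for Otof, 2.35-fold for Deptor and 2.06-fold for Bcl11b, but by only 1.22-fold for Rorb and 1.27-fold for Fezf2. The median over the 32 tested members was 1.58-fold, close to the 1.63-fold of all genes tested. Of all genes tested, 91.2% had a smaller SD over libraries than Pcp4, and 84.8% a smaller one than Bcl11b.

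Part of this spread ran along a balance between short and long genes. A measure of each library's balance was the median deviation of the 2606 shortest tested genes (at most 2008 bases) minus that of the 2604 longest (at least 7322 bases), on the log2 scale. It was chosen after the data had been seen. It ran from -0.42 in saline library 4 to 0.45 in saline library 5, and the groups were alike (-0.01 ± 0.35 in saline, 0.03 ± 0.29 in cocaine, SD, n = 6). Within the cocaine group it also went with the unexplained time tag, at 0.06 to 0.41 for day 0 and -0.36 to -0.07 for day 5, while in saline the tags overlapped. Saline library 4 had the highest value of 8 members, among them Bcl11b, Rasgrf2, Tle4 and Hs3st4, and the lowest of Pcp4, Rorb, Nxph4 and Cplx3. Saline library 5 had the lowest value of 6 members, which again included Bcl11b, Rasgrf2, Tle4 and Hs3st4.

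The slope of each member on this measure, fitted over 12 libraries with the group as a term, is given as log2 units per log2 unit with its SE. Rasgrf2 (9237 bases, chr13:91880400-92131656, minus strand) had a slope of -1.33 ± 0.14, Bcl11b (8111 bases, chr12:107910403-108003602, minus strand) of -1.19 ± 0.12, Deptor (8874 bases) of -1.17 ± 0.16, and Tle4 (4640 bases) of -0.84 ± 0.14. Pcp4, at 1026 bases the shortest member, had the opposite slope of 1.34 ± 0.24, followed by Cplx3 with 0.60 ± 0.21, Nxph4 with 0.43 ± 0.23, Rprm with 0.43 ± 0.18, Lmo4 with 0.39 ± 0.11 and Crym with 0.38 ± 0.14. Length did not fix the slope, since the longest member, Cux1 (20024 bases), had 0.15 ± 0.14 and Rorb (11076 bases) 0.06 ± 0.09. Of the 19 members of 4000 bases or more, 16 had a negative slope (84.2%), beside 69.5% of all tested genes of that length. Of the 14 shorter members, 10 had a positive slope (71.4%), beside 72.7% of all tested genes under 4000 bases. Part of this is built in, because the measure is made of short and long genes.

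With the measure as a covariate, an alternative chosen after the data were seen, the SE of the cocaine difference shrank from 0.20 to 0.07 for Bcl11b, from 0.23 to 0.07 for Rasgrf2, from 0.21 to 0.09 for Deptor and from 0.25 to 0.12 for Pcp4. The differences themselves then were 0.004 for Bcl11b, 0.10 for Rasgrf2, -0.02 for Deptor and 0.16 for Pcp4. No member passed the adjusted threshold in this fit either. Neurod1 hardly depended on the measure (slope 0.10 ± 0.18), and its difference stayed at 0.21 ± 0.11.

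**Figure D4:**
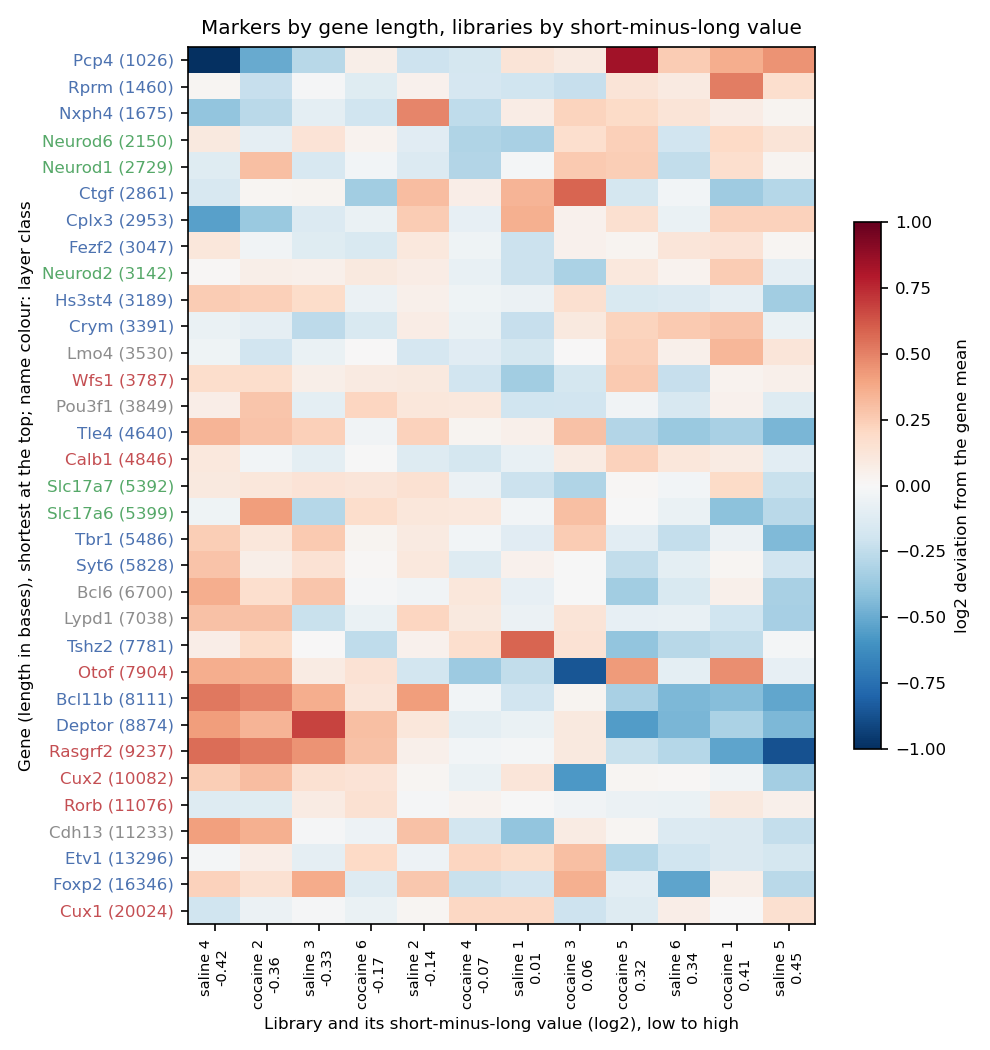
Deviation of each member from its mean over libraries, log2(value + 1), with libraries ordered by the short-minus-long measure and members by length, shortest at the top. Rasgrf2, Bcl11b and Deptor run from high to low and Pcp4 from low to high along this order, while Rorb and Cux1 show no such run.

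**Figure D5:**
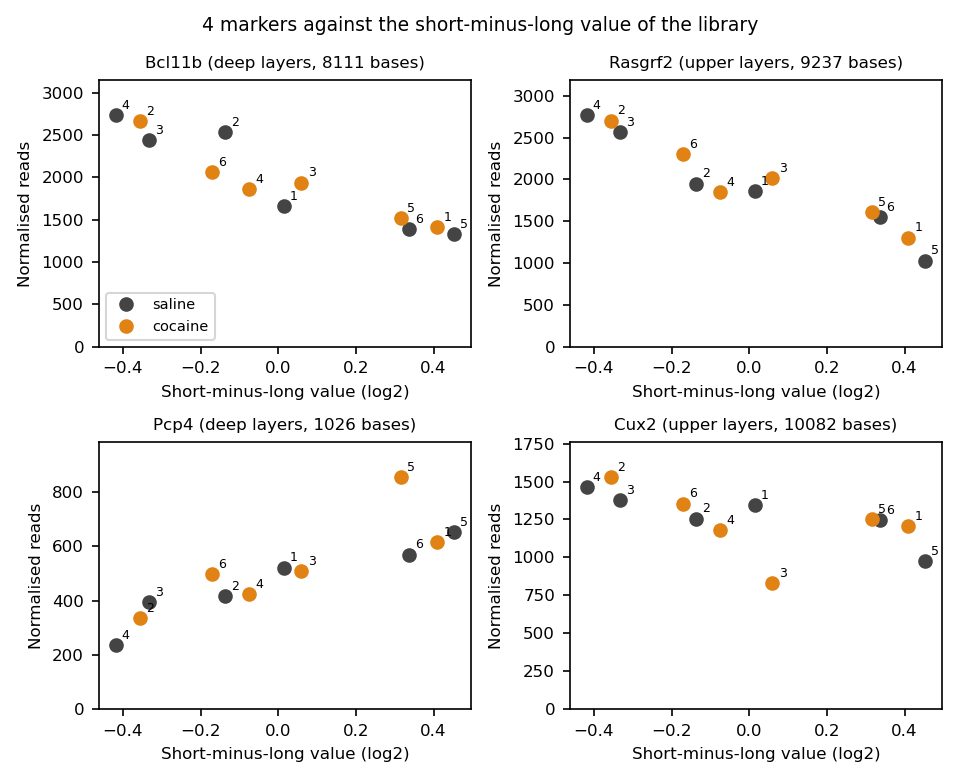
Normalised reads of Bcl11b, Rasgrf2, Pcp4 and Cux2 in each library against the short-minus-long value of that library (log2), coloured by group and numbered by replicate. Bcl11b and Rasgrf2 decline and Pcp4 climbs along the axis in both groups, and cocaine library 3 lies below the other libraries for Cux2, at 829.

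The region before the transcription start is shown for 4 members. Bcl11b and Pcp4 are shown because their levels ran in opposite directions over the libraries. Cux2 and Neurod2 are shown because a promoter of each holds the E-box CAGATG, a letter sequence to which NEUROD factors bind. On the opposite strand it reads CATCTG. Sequences are from RefSeq on build GRCm38.p6, the 250 bases before an annotated start, on the strand of the gene, 5′ to 3′, with the E-box in capitals. They lie at chr5:122047826-122048075 for Cux2 (minus strand, the start inside the gene of the 2 annotated), chr11:98329646-98329895 for Neurod2 (minus strand), chr12:108003415-108003664 for Bcl11b (minus strand) and chr16:96467356-96467605 for Pcp4 (plus strand).
Cux2: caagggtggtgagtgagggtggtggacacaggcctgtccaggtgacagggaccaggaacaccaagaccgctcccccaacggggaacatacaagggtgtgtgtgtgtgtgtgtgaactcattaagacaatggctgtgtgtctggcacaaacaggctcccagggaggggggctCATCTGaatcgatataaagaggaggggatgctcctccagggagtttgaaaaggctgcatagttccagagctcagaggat
Neurod2: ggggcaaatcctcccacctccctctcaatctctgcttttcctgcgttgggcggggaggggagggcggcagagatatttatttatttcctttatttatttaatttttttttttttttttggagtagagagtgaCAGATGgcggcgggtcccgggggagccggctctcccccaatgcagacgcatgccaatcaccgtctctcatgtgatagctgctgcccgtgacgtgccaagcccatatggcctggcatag
Bcl11b: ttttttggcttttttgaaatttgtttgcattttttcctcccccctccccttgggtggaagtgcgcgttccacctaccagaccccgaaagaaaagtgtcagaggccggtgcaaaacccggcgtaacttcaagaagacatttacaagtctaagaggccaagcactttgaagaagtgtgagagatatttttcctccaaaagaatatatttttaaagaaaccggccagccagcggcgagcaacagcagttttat
Pcp4: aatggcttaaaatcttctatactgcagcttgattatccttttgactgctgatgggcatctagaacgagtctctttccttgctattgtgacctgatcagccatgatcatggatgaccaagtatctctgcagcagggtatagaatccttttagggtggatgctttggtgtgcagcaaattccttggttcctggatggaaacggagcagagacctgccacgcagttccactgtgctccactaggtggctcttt
The E-box begins 79 bases before the start in Cux2 and 118 bases before it in Neurod2. In windows of 300 bases (250 before and 50 after a start), 5 of 36 promoters of the 24 members matched held it on either strand, beside 17.2% of all 32851 promoters in the table. These were promoters of Cux2, Etv1, Neurod2, Slc17a6 and Wfs1. Cux2, Etv1 and Slc17a6 each have another annotated promoter, which did not hold it. The T-box letters AGGTGTGA (TCACACCT on the other strand), bound by factors such as TBR1, were in 0 of 36 member promoters and in 1.28% of all. The 2 motifs do not overlap in their letters, and a match describes these letters only.

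Among the 12 libraries, 3 of 5 pairs of markers of like layers varied together by Pearson's r, and neither pair of different layers passed the test. The pairs were a chosen few with no background of other pairs. They do not show whether markers of like layers vary together more than those of different layers. Rasgrf2 (upper list) and Bcl11b (deep list), a pair not tested, were both highest in saline library 4 and lowest in saline library 5. Correlations of log2(value + 1) were computed for 9 pairs, with two-sided permutation p-values adjusted over the 9. Syt6 and Hs3st4, both of layer 6, had Pearson's r = 0.795 (permutation p = 0.0021, adjusted 0.0152) and Spearman's rho = 0.797 (p = 0.00291, adjusted 0.0211). Foxp2 and Tle4, also of layer 6, had r = 0.767 (permutation p = 0.00506, adjusted 0.0152) and rho = 0.769 (p = 0.00489, adjusted 0.0211). Cplx3 and Nxph4, of the deepest neurons, had r = 0.766 (permutation p = 0.0034, adjusted 0.0152) and rho = 0.706 (p = 0.0131, adjusted 0.0295). Without the 2 libraries farthest from the median of the first gene, r was 0.750, 0.700 and 0.732 in that order. Within saline libraries r was 0.973, 0.882 and 0.772, and within cocaine libraries 0.630, 0.556 and 0.771.

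These pairs differ in how far they shared the length balance. After the short-minus-long measure was removed from both genes, r was 0.434 for Syt6 and Hs3st4, 0.682 for Foxp2 and Tle4, and 0.661 for Cplx3 and Nxph4. A pair of upper-layer genes gave a mixed answer, as Cux2 and Rasgrf2 had r = 0.560 (permutation p = 0.0566, adjusted 0.127) but rho = 0.748 (p = 0.00704, adjusted 0.0211). Their r was 0.850 without cocaine library 3 and saline library 5, 0.948 within saline and 0.294 within cocaine libraries, and 0.091 after the measure was removed.

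The remaining 5 pairs did not pass. Cux1 and Cux2 had r = -0.007 (permutation p = 0.983, adjusted 0.983), with -0.598 within saline and 0.317 within cocaine libraries. Across layers, Cux2 and Foxp2 had r = 0.019 (permutation p = 0.953, adjusted 0.983), and Rorb and Tle4 r = -0.327 (permutation p = 0.295, adjusted 0.396). With Mbp, the myelin gene, Cux2 had r = -0.381 (permutation p = 0.224, adjusted 0.396) and Tle4 r = -0.319 (permutation p = 0.308, adjusted 0.396). The Spearman correlation of these 5 pairs, in the same order, was -0.224, 0.336, -0.427, -0.469 and -0.371, with adjusted permutation p from 0.232 to 0.487. Leaving out 2 libraries as before gave r = -0.059, 0.458, -0.225, -0.414 and -0.219, and removing the short-minus-long measure gave 0.214, -0.460, -0.303, -0.217 and 0.056. Within saline libraries Cux2 and Foxp2 had r = 0.504 and within cocaine libraries -0.506, Rorb and Tle4 -0.195 and -0.473, Mbp and Cux2 -0.652 and -0.212, and Mbp and Tle4 -0.709 and 0.553.

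Other markers of the same neurons, outside the 33, gave no calls. Of 9 other upper-layer genes tested 4 differences were above 0 and 5 below (median -0.04), of 10 other deep-layer genes 7 and 3 (median 0.05), and of 12 other genes of excitatory neurons 10 and 2 (median 0.02). None had an adjusted p under 0.05 by limma, and 1 had an unadjusted p under 0.05. That gene was Mdga1, a cell-surface protein of upper-layer neurons that limits synapse formation. Mdga1 ranged from 174 to 225 in saline and from 92.6 to 242 in cocaine libraries, with means of 202 ± 16.9 and 155 ± 49.98 (SD, n = 6). The difference was -0.43 ± 0.18, with p = 0.0411 in the exact permutation test and a limma adjusted p of 0.999964. The ranges overlapped, the lowest and the highest library were both cocaine ones, and the difference was -0.30 without cocaine library 3.

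Whrn, a scaffold protein, ranged from 696 to 1386 in saline and from 585 to 790 in cocaine (-0.26 ± 0.15). The value of 1386 was saline library 5, the one with the high choroid plexus sum, and without it the difference of Whrn was -0.13. Of the deep-layer genes, Moxd1, a monooxygenase-like gene, ranged from 87.0 to 188 and from 121 to 188 (0.30 ± 0.19, or 0.19 without saline library 5), and Ldb2, a LIM-domain cofactor, from 1710 to 2214 and from 1828 to 2204 (0.09 ± 0.08). Mef2c, an activity-dependent transcription factor, had a difference of 0.07 ± 0.09 (0.02 without saline library 5) and Arpp21, a phosphoprotein of cortical and striatal neurons, one of 0.04 ± 0.06. Among the 33 members, 8 are also expressed by striatal projection neurons (Bcl11b, Foxp2, Pcp4, Calb1, Wfs1, Crym, Rasgrf2 and Lmo4). Of these, 7 had a difference above 0 and 1 below (median 0.07), and none passed the test. Over all genes tested 53.7% of differences were above 0 (median 0.01), and over the 32 tested members 62.5% (median 0.03). The summed striatal level was 94.1 ± 24.1 FPKM in saline and 87.3 ± 15.2 FPKM in cocaine libraries (SD, n = 6). With the mean log2 deviation of the striatal genes (the striatal score) as a covariate, no member passed the adjusted threshold. Whether striatal tissue underlies these differences was not tested.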

How the data were processed

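RNA sequencing of 12 prefrontal cortex libraries, 6 per group, was analysed from 1 table of the whole series. Per the labels' protocols the libraries came from a TruSeq kit. The submitters' processing notes list HISAT2 2.0.5, while the program that counted reads and whether it used strand are not given in the sources used. The labels name a human build, yet the gene IDs are mouse IDs and 28041 of 28842 had the same start and end in GENCODE M21, so coordinates are those of GRCm38. Each deposited value is a signal: the authors had scaled the read count of the gene by a size factor of the library, and had not divided it by gene length. Dividing by the worth of 1 read gave whole numbers for 100% of values in each library, within 0.01 read. Per the file headers, the deposited table also holds the authors' log2 fold change, p-value and adjusted p-value, as well as gene length, given as a column of another kind.

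FPKM was computed here from each value, the deposited gene length and the sum of the library's values. Genes with a mean of at least 1 FPKM (13016) were tested on log2(value + 1) with limma 3.58.1 (R 4.3.3), without covariates, two-sided, with Benjamini-Hochberg adjustment over all genes tested. A fold change on this scale understates the change of low genes. Exact permutation tests of single genes enumerated all 924 arrangements (smallest possible p 0.00216), and correlations used 100000 resamples in Python 3.11.15 with scipy 1.17.1. Recovered reads were tested with edgeR 4.0.16 and DESeq2 1.42.0 as alternatives. The procedure was run on simulated data in which genes varied independently and the planted changes were larger than any member's difference. That run therefore does not show whether differences of the size seen here would be found. Depth was 16.7 to 19.9 M reads, and counting limits cover counting error only. Other alternatives were the pseudocount, the filter, TMM scaling, the variance trend, library weights, a replicate block, covariates, and leaving libraries out.

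The members and gene lists were chosen with earlier results of these data known. Every member is named; from each list of further excitatory markers the 2 genes with the smallest unadjusted p are named, and other cell types appear through their defining markers. Promoter sequences are RefSeq's, and 24 of 33 members had an entry.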

Additional observations from a re-analysis of the deposited data

Results flagged for a closer look

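Among 84 groups of 6 values (members, named genes and layer measures, by group), 4 held 1 library far from the others by Dixon's criterion, where chance gives about 1 in 20, or 4.2. Ctgf, a marker of the deepest neurons, was at 1002 normalised reads in cocaine library 3 and at 523 to 701 in the other cocaine libraries. The upper-minus-deep difference of the same library was -0.39 on the log2 scale, against -0.03 to 0.15 in the other cocaine libraries. Tshz2 was at 129 normalised reads in saline library 1 and at 71.1 to 90.3 in the other saline libraries. Whrn was at 1386 normalised reads in saline library 5, the library with the high choroid plexus sum, and at 696 to 889 in the other saline libraries.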

How the results depend on the processing

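No alternative that was run gave a member an adjusted p under 0.05, and the smallest adjusted p of any member was 0.999588. Over all genes, every limma alternative and edgeR called 0, and DESeq2 called 3 where limma called 0. At an unadjusted p under 0.05, genes higher and lower in cocaine numbered 88 and 61, 72 and 79 with TMM, 190 and 132 with library weights, and 291 and 164 with the short-minus-long measure as covariate. Of 832 member values under alternatives, 76 changed sign, and 12 of 32 members never changed sign. The upper-minus-deep difference moved by less than 1 within-group SD (0.17) in all 27 alternatives. The number of upper-layer members with a positive difference was 5 and ran from 3 to 6 when each library was left out in turn. That of deep-layer members was 6, ran from 4 to 11 without 1 library, and was 2 with library weights. Without saline 5 and cocaine 3 together, a setting chosen after seeing the data (as were the short-minus-long measure and TMM scaling for pairs), the difference was -0.15 for Rasgrf2, -0.078 for Foxp2, -0.059 for Tbr1, 0.038 for Rprm, -0.079 for Hs3st4, 0.0014 for Cplx3, -0.025 for Lypd1 and -0.032 for Cdh13. With library weights it was -0.0010 for Crym, -0.17 for Foxp2, -0.023 for Tbr1, -0.052 for Hs3st4, -0.025 for Lypd1, -0.091 for Cdh13 and -0.00048 for Slc17a7. With the striatal score as covariate it was -0.020 for Otof, 0.0093 for Cplx3, -0.00042 for Cdh13 and -0.0019 for Slc17a7. The oligodendrocyte score as covariate gave -0.00078 for Hs3st4 and -0.0012 for Cdh13, and the short-minus-long measure gave 0.0042 for Bcl11b, 0.025 for Tle4 and 0.013 for Bcl6. With TMM scaling r of Cux2 and Foxp2 was -0.029. The cause of these changes was not tested. Without 1 library at a time the difference ran from -0.16 to 0.051 for Bcl11b, -0.078 to 0.059 for Bcl6, -0.049 to 0.11 for Cdh13, -0.14 to 0.041 for Cplx3, -0.15 to 0.035 for Cux2, -0.18 to 0.051 for Deptor and -0.049 to 0.023 for Fezf2. It ran from -0.063 to 0.12 for Foxp2, -0.049 to 0.071 for Hs3st4, -0.0050 to 0.12 for Lypd1, -0.0040 to 0.11 for Neurod2, -0.16 to 0.015 for Nxph4, -0.030 to 0.23 for Otof and -0.13 to 0.16 for Rasgrf2. For the rest that changed sign it ran from -0.0041 to 0.051 for Rorb, -0.14 to 0.0081 for Rprm, -0.016 to 0.090 for Slc17a7, -0.016 to 0.12 for Tbr1 and -0.11 to 0.054 for Tle4. Among those that kept their sign, it ran from 0.044 to 0.35 for Pcp4, -0.19 to -0.0070 for Ctgf, 0.0049 to 0.11 for Wfs1, 0.024 to 0.10 for Calb1, 0.036 to 0.14 for Lmo4 and 0.030 to 0.15 for Neurod6. Libraries with the same replicate number correlated from -0.399 to 0.435 in their deviations from the group means. Of 6 saline libraries, 2 correlated best with the cocaine library of their own number, so the numbers were not taken as pairs. With a replicate block limma called 0 genes, 150 had an unadjusted p under 0.05 beside 149 without it, and no member's call changed.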
